A study of Mus musculus with 9 samples.

Results

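The mitochondrial carriers of the SLC25 family were examined in mouse liver. The members were the protein-coding genes whose symbol begins with Slc25a, other than Slc25a13, Slc25a15 and Slc25a32. Of 47 such genes listed, 44 remained after these 3 were set aside, and 32 had a mean of at least 0.5 FPKM (fragments per kilobase of exon, scaled per library by the authors) over the 9 libraries. Those 32 were tested among 11852 genes. The rule itself used symbols and mean level, and it was set with earlier results of these data known.

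RNA of whole liver was sequenced in 3 groups of 3 libraries. These were Cth knockout mice given 1% betaine in their drinking water, Cth knockout mice on plain drinking water and wild type mice on plain drinking water. The product of Cth, cystathionine gamma-lyase, forms cysteine at the end of transsulfuration and can release hydrogen sulfide, and betaine is a methyl donor that remethylates homocysteine in liver. The series title names hepatocyte injury and histone lysine methylation. How the allele was made, the strain, the sex, the age and any batch are not given in the sources used here, nor is it said that the replicates are separate animals. The p-values therefore measure the spread between these samples, which may be technical.

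SLC25 proteins are small carriers of the inner mitochondrial membrane, built from a repeated pair of membrane helices around a single binding site. Each exchanges or imports particular solutes, among them nucleotides, cofactors, carboxylates, amino acids, phosphate and metal ions, and a few members sit in peroxisomes or in the outer membrane. They are encoded in the nucleus and enter the membrane through the TOM complex, the small TIM chaperones and the TIM22 complex. In liver they join the cytosolic and mitochondrial steps of gluconeogenesis, urea formation, fatty acid oxidation and lipogenesis.

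Cth itself measured 0.319, 0.309 and 0.781 FPKM in the betaine-supplemented knockout and 0.583, 0.278 and 0.770 FPKM in the knockout, against 285, 257 and 219 FPKM in wild type, so it followed the genotype labels. Reads recovered from the FPKM came to 15183885 to 17473154 per library, and the tested carriers took from 10 to 11320 reads each in a library, so counting error weighed most on the lowest members. Among the 9 libraries, wild type replicate 3 was unlike the rest: it had 26.6 FPKM of Xist, the non-coding RNA of X inactivation, against at most 0.0124 FPKM in the others. It was also the highest or lowest library for 14 of the 32 carriers, compared with 2 to 7 carriers for each other library. The same count was not made over all genes. Wild type replicate 3 may differ from the other libraries in sex, which is not given and was not tested. Every comparison with wild type includes it unless it is said to be left out. Hepatocyte markers dominated every library, with summed levels of 31915 to 44076 FPKM in the betaine-supplemented knockout, 39354 to 50913 in the knockout and 46179 to 66226 in wild type. In bulk liver, fewer cells of a type and less RNA per cell cannot be told apart.

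The family spanned a ratio of 497 between its highest and lowest tested mean. Slc25a5, an ADP/ATP carrier that exports newly made ATP, led with a mean of 260.2 FPKM over the 9 libraries. Slc25a39, required for mitochondrial glutathione import, followed with 150.4 FPKM, and Slc25a47, a carrier found mainly in liver, with 136 FPKM. Another 17 members lay between 10 and 100 FPKM, 11 between 1 and 10 FPKM and Slc25a14 below 1 FPKM. The 5 highest carriers held 64.5% of the family's summed FPKM and the 10 highest held 82.0%. Slc25a5 alone held 26.2% to 30.2% of it in the betaine-supplemented knockout, 26.1% to 26.7% in the knockout and 17.0% to 17.8% in wild type, and the wild type range lay below both others.

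**Figure D1:**
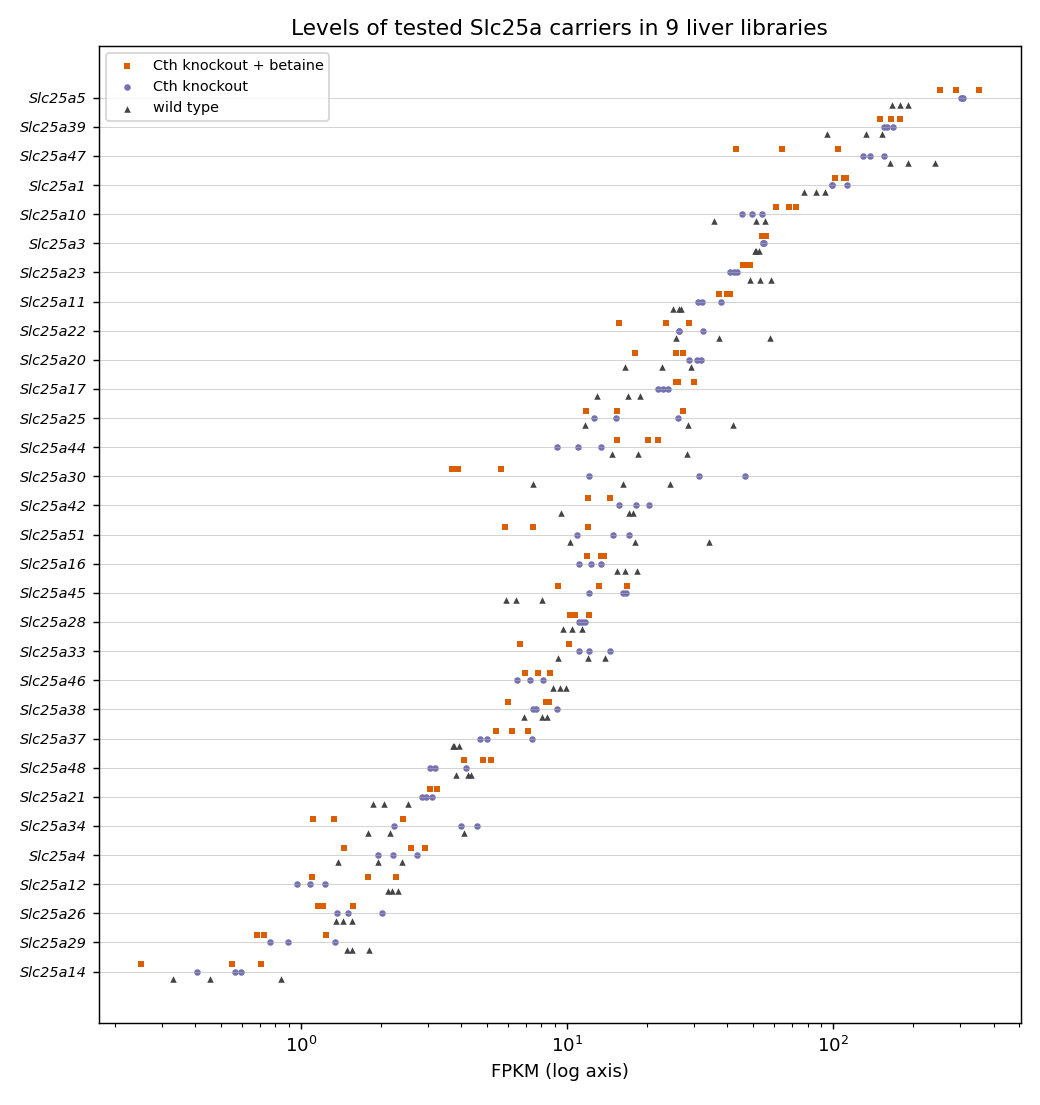
FPKM of the tested carriers in each of the 9 libraries on a log axis, ordered by mean level, with squares for the betaine-supplemented knockout, circles for the knockout and triangles for wild type. The levels run from Slc25a14 near the threshold of 0.5 FPKM to Slc25a5 at 167 to 351 FPKM, and for Slc25a47 and Slc25a30 the squares lie left of both other groups.

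The other 12 members missed the threshold. Slc25a54 was listed at 0 in all libraries, and none of the 12 averaged above 0.477 FPKM. Just inside the threshold stood Slc25a14, an uncoupling-protein relative, with 0.524 FPKM, and just outside it stood Slc25a35, whose mean was 0.477 FPKM. Slc25a35 measured 0.597, 0.910 and 1.05 FPKM in the betaine-supplemented knockout, 0.403, 0.345 and 0.292 FPKM in the knockout and 0.276, 0.196 and 0.226 FPKM in wild type. The 3 groups of Slc25a35 did not overlap, and it has no test. Several of the low members are partners of carriers that were well measured. Slc25a24, an ATP-Mg/phosphate carrier like Slc25a23, averaged 0.451 FPKM, Slc25a40, the relative of Slc25a39, averaged 0.373 FPKM, and Slc25a36, the pyrimidine nucleotide partner of Slc25a33, averaged 0.321 FPKM. Slc25a18, the second glutamate carrier beside Slc25a22, did not exceed 0.221 FPKM in any library.

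Against wild type, the Cth knockout had higher RNA of 6 carriers and lower RNA of 3. Among those that rose were Slc25a45, Slc25a5, Slc25a17, Slc25a21 and Slc25a11, while Slc25a44, Slc25a12 and Slc25a16 fell. The 9 called were 28.1% of the 32, and 25.6% of all 11852 genes passed the same test (limma on log2(FPKM + 0.5), Benjamini-Hochberg adjusted p under 0.05), so the share of carriers called was close to that of genes at large. By direction, 12.8% of genes were higher and 12.7% lower. The median log2 difference was 0.11 over the carriers and 0.015 over all genes. Groups did not overlap for 17 carriers, or 53.1%, against 46.8% of all genes. The split by direction depended on the scaling, for carriers and for all genes. Rescaling to TPM moved the median of all genes by -0.36. That fit called 2 carriers higher and 9 lower, beside 588 and 3674 of 11852 genes. With each library divided by its own recovered read total, the median of all genes moved to -0.085. There 3 carriers were higher and 5 lower, beside 1169 and 1952 genes. The authors' scaling is not stated in the sources used here, and a median-of-ratios rescaling kept all 3029 calls, so directions here are relative to the typical gene and not to each library's read total.

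Against wild type, the betaine-supplemented knockout had 6 carriers higher and 1 lower. Slc25a45, Slc25a17, Slc25a5, Slc25a37, Slc25a11 and Slc25a21 rose, and Slc25a47 fell. The 7 called were 21.9% of the carriers, beside 11.7% of all genes, with 5.87% of genes higher and 5.78% lower. The median log2 difference was -0.04 over the carriers and 0.005 over all genes. Groups did not overlap for 15 carriers, or 46.9%, beside 32.2% of all genes. Both comparisons share the wild type libraries, so a gene called in each is not called independently. The carriers called in both were Slc25a5, Slc25a11, Slc25a17, Slc25a21 and Slc25a45, while 21 of 32 were called in neither.

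**Figure D2:**
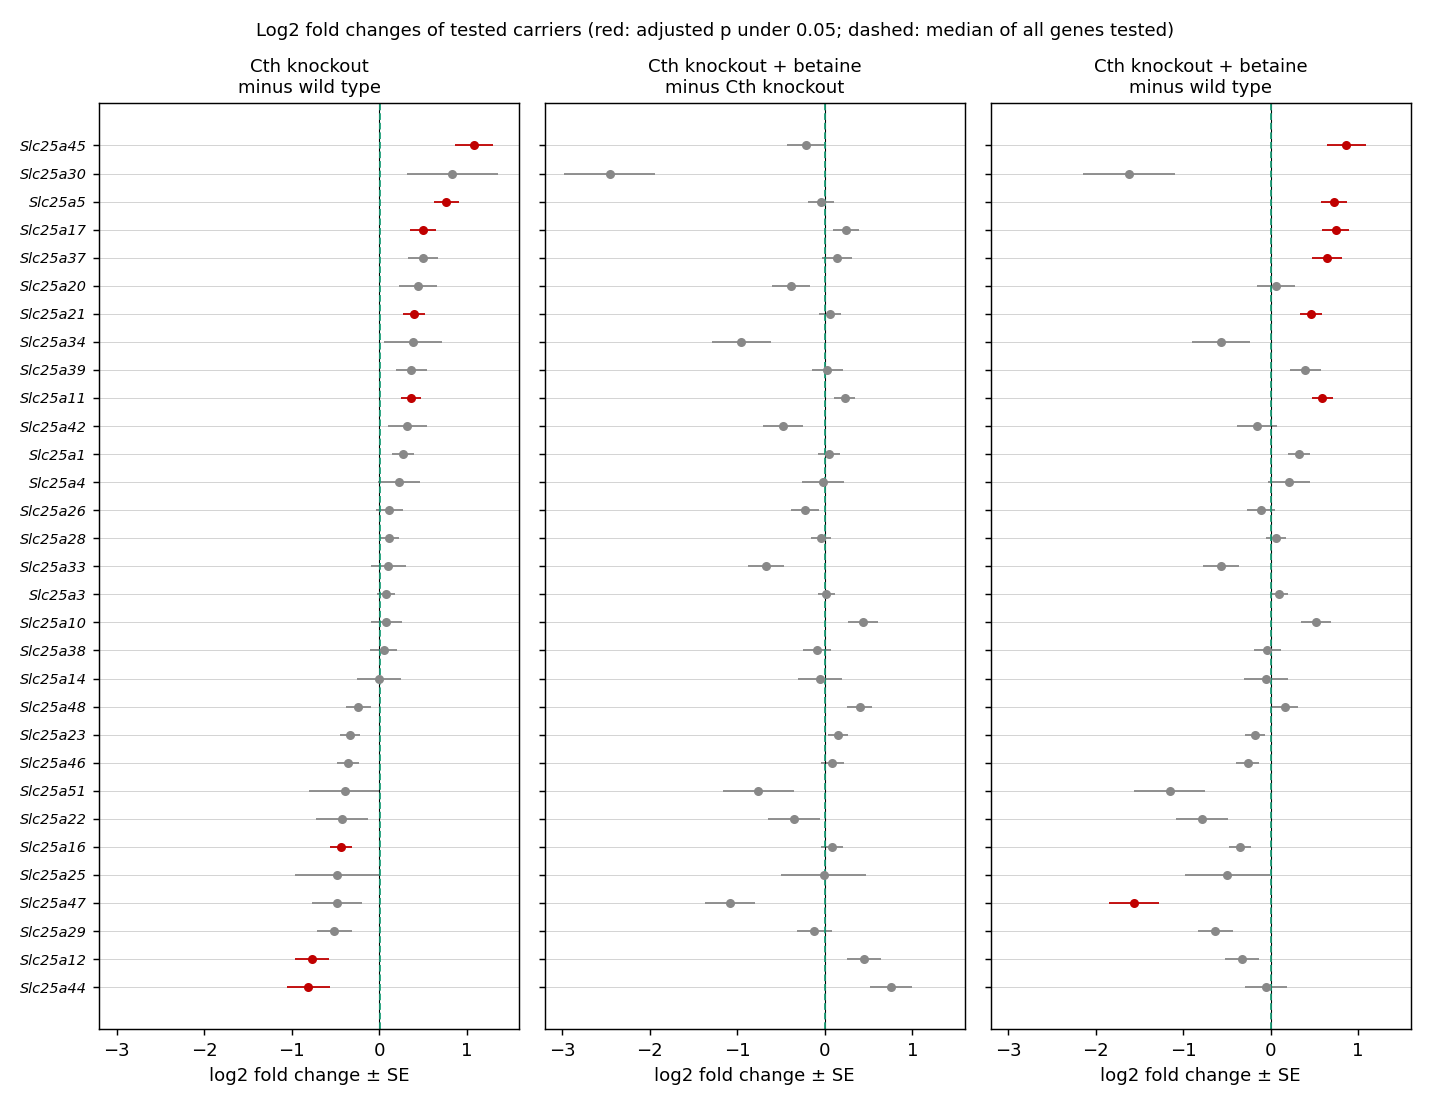
Log2 fold change ± SE of the tested carriers in the 3 comparisons, with carriers under an adjusted p of 0.05 in red, a solid line at 0 and a dashed line at the median of all genes tested. No point is red in the betaine-supplemented against the plain knockout, the highest red point in both comparisons with wild type is Slc25a45, and the widest bars belong to Slc25a30 and Slc25a25.

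These counts rested on few libraries. In the knockout against wild type, the number of carriers called was 3 without wild type replicate 1, 5 without wild type replicate 2 and 6 without wild type replicate 3. Beside them, 1826, 2598 and 2567 of 11852 genes were called. The carriers called were 5 without knockout replicate 1, 2 without knockout replicate 2 and 2 without knockout replicate 3, beside 1957, 896 and 1706 genes. Leaving out a betaine library, which enters that contrast through the shared estimate of spread, left 6 or 7 carriers and 2618 to 3231 genes. Over these 9 fits Slc25a5 and Slc25a45 passed in 9, Slc25a12 in 6, Slc25a16 in 5, Slc25a44 in 4, Slc25a17 in 3, Slc25a21 in 1 and Slc25a11 in 0. In the betaine-supplemented knockout against wild type, the count was 0 without betaine replicate 3 and 3 without betaine replicate 1. It was 3 without wild type replicate 1 and 3 without wild type replicate 2. It was 4 without knockout replicate 1, 4 without knockout replicate 2 and 5 to 7 in the other fits. Over all genes the calls ranged from 351, without betaine replicate 3, to 1441, without betaine replicate 2. There Slc25a47 passed in 8 of the 9, Slc25a5 and Slc25a17 in 7, Slc25a11 in 6, Slc25a45 in 3, and Slc25a37 and Slc25a21 in 1.

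The 4 adenine nucleotide carriers tested included the family's most abundant member. Slc25a5, the ADP/ATP carrier of most non-muscle tissues, measured 351, 252 and 289.8 FPKM in the betaine-supplemented knockout, 304, 307 and 303 FPKM in the knockout and 191, 167 and 178 FPKM in wild type. Every library of both knockout groups exceeded every wild type library, and the 2 knockout groups overlapped. The log2 difference was 0.77 ± 0.15 (SE, limma adjusted p = 0.00891) for the knockout against wild type and 0.73 ± 0.15 (limma adjusted p = 0.0179) for the betaine-supplemented knockout against wild type, or 1.71-fold and 1.65-fold. The knockout difference was 0.35 (limma adjusted p = 0.0462) on the TPM scale. With the trend with exon length removed it was 0.41 (limma adjusted p = 0.0387), and it did not pass with a replicate block added (limma adjusted p = 0.0626). With betaine it was 0.67 on the TPM scale and 0.53 (limma adjusted p = 0.0276) with that trend removed. The closely related heart and muscle form, Slc25a4, measured 2.6, 2.94 and 1.45 FPKM in the betaine-supplemented knockout, 1.95, 2.22 and 2.74 FPKM in the knockout and 1.38, 1.95 and 2.4 FPKM in wild type. Its groups overlapped and its log2 difference of 0.23 ± 0.24 for the knockout did not pass (limma adjusted p = 0.493). How reads matching more than 1 of these similar genes were counted is not given in the sources used here. The ATP-Mg/phosphate carriers, which set the size of the matrix nucleotide pool, gave no call. Slc25a23 measured 45.9, 46.5 and 48.9 FPKM in the betaine-supplemented knockout, 42.3, 40.9 and 43.5 FPKM in the knockout and 58.5, 48.7 and 53.1 FPKM in wild type. The knockout lay below wild type in every library, with a log2 difference of -0.33 ± 0.11 (limma adjusted p = 0.0587). Slc25a25 was among the most variable members: it measured 15.4, 11.7 and 27.3 FPKM in the betaine-supplemented knockout, 26.2, 15.3 and 12.7 FPKM in the knockout and 28.6, 11.6 and 42.1 FPKM in wild type, and the 3 groups overlapped.

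The promoters of 4 called carriers are shown as examples, chosen after their values were seen: Slc25a5, Slc25a17 and Slc25a45 were higher in both knockout groups, as were Slc25a11 and Slc25a21, and Slc25a47 was lower with betaine than in wild type. Each window runs from 250 bases before to 50 bases after the RefSeq start on the gene's own strand (GRCm38.p6). They are chrX:36795347-36795646 (plus) for Slc25a5, chr15:81360716-81361015 (minus) for Slc25a17, chr19:5877572-5877871 (plus) for Slc25a45 and chr12:108850879-108851178 (plus) for Slc25a47. Capitals mark a CCAAT box (CCAAT, or ATTGG on the other strand) or an ETS motif (CCGGAAG), the motifs found in these windows among the 9 searched.
Slc25a5: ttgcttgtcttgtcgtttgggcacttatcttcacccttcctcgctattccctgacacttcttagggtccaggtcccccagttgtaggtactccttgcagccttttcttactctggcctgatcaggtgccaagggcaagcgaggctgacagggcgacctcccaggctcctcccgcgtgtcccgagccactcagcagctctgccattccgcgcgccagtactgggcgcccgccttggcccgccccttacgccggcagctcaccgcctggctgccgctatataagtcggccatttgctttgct
Slc25a17: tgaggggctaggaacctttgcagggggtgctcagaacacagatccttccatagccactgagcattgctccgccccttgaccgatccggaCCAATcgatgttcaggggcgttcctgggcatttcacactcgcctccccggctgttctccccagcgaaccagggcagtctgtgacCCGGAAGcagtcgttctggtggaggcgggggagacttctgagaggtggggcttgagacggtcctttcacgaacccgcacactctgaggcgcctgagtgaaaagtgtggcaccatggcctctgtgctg
Slc25a45: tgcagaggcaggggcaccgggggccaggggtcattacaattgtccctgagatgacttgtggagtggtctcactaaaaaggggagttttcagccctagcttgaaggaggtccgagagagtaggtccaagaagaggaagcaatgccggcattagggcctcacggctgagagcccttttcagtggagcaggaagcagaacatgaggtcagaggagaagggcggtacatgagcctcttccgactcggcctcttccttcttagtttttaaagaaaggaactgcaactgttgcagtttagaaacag
Slc25a47: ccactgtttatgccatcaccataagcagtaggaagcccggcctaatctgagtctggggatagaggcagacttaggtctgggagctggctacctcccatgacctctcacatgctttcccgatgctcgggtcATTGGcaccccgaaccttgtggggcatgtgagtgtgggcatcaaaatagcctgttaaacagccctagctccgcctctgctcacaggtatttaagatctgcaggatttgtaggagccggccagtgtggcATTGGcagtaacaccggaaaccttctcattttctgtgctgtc

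RefSeq windows were matched for 26 of the 32 carriers, and both strands were searched. A CCAAT box stood in 16 of the 26, or 61.5%, beside 42.7% of the 8562 tested genes with a window and 37.4% of all 32851 windows. The window of Slc25a17 held it at position -161 from the start, with the ETS motif at -77. Slc25a47 held it at -120 and at 8, while neither motif was in the windows of Slc25a5 and Slc25a45. ETS stood in 6 of 26 windows (23.1%, beside 20.8% of tested genes). The E-box CACGTG stood in those of Slc25a1, Slc25a14 and Slc25a33 (11.5%, beside 12.1%). The NRF1 motif GCGCANGCG was found in that of Slc25a3 (3.85%, beside 15.8% of tested genes), the TATA box TATAAA in that of Slc25a21 (3.85%, beside 9.26%), the cyclic AMP element TGACGTCA in that of Slc25a25 (3.85%, beside 3.56%) and the YY1 motif AAGATGGCG in that of Slc25a3 (3.85%, beside 3.90%). No carrier window held the ERR motif TCAAGGTCA (0.350% of tested genes) or the C/EBP-ATF motif TGATGNAAT (0.607%). These matches are descriptions of letters and were not tested. The windows had a median GC content of 59.8%, beside 60.7% for the tested genes.

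The carriers of pyrimidine nucleotides and nucleotide cofactors included called members of both directions in the knockout. Slc25a17, a peroxisomal carrier of coenzyme A, FAD and NAD+, measured 30.1, 25.6 and 26.2 FPKM in the betaine-supplemented knockout, 24.0, 21.9 and 23.0 FPKM in the knockout and 18.9, 16.9 and 13 FPKM in wild type. The 3 groups did not overlap, with the betaine-supplemented knockout highest and wild type lowest. The log2 difference was 0.50 ± 0.15 (limma adjusted p = 0.0364) for the knockout against wild type, and 0.35 (adjusted p = 0.0699) without wild type replicate 3 or 0.094 (adjusted p = 0.578) on the TPM scale. For the betaine-supplemented knockout against wild type it was 0.74 ± 0.15 (limma adjusted p = 0.0175).

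Of the mitochondrial carriers linked to coenzyme A, 1 fell in the knockout. Slc25a16, associated with mitochondrial coenzyme A, measured 11.9, 13.4 and 13.8 FPKM in the betaine-supplemented knockout, 13.5, 11.1 and 12.3 FPKM in the knockout and 18.4, 16.5 and 15.4 FPKM in wild type. Wild type lay above all other libraries, with a log2 difference of -0.43 ± 0.12 for the knockout (limma adjusted p = 0.0329) and -0.35 ± 0.12 with betaine (limma adjusted p = 0.0932). Slc25a42, the other coenzyme A carrier, ranged from 11.9 to 14.5 FPKM with betaine, from 15.7 to 20.3 FPKM in the knockout and from 9.45 to 17.7 FPKM in wild type, with no call. Slc25a33, which imports pyrimidine nucleotides, had 10.1, 6.64 and 6.66 FPKM in the betaine-supplemented knockout, 14.5, 11.1 and 12.1 FPKM in the knockout and 13.9, 12 and 9.29 FPKM in wild type. Slc25a51, the mitochondrial NAD+ importer, ranged from 5.85 to 12 FPKM with betaine, from 10.9 to 17.0 FPKM in the knockout and from 10.3 to 34.2 FPKM in wild type, where replicate 3 gave the highest value. The log2 differences of Slc25a33 and Slc25a51 against wild type were -0.57 ± 0.20 and -1.15 ± 0.41 with betaine, neither past the threshold (limma adjusted p = 0.0967 and 0.0968).

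The 5 carriers of citrate, dicarboxylates and oxodicarboxylates all had log2 differences above 0 in the knockout, beside 62.5% of the 32 carriers and 51.2% of all genes. Of the 5, 2 passed in each comparison with wild type. Slc25a11, the oxoglutarate-malate carrier of the malate-aspartate shuttle, measured 40.9, 37.3 and 40.0 FPKM in the betaine-supplemented knockout, 37.9, 31.0 and 32.1 FPKM in the knockout and 26.3, 24.9 and 26.7 FPKM in wild type. All wild type libraries were lowest, and the log2 difference was 0.36 ± 0.12 for the knockout (limma adjusted p = 0.0487) and 0.59 ± 0.12 with betaine (limma adjusted p = 0.0173). The knockout difference was 0.38 (adjusted p = 0.0600) without wild type replicate 3, 0.10 (adjusted p = 0.543) once the trend with exon length was removed and -0.050 on the TPM scale. Its exons overlap those of Rnf167 on the opposite strand over 189 bases, 8.92% of its exon length, and whether counting used strand is not given in the sources used here. Slc25a21, which carries oxoadipate and other oxodicarboxylates from lysine and tryptophan breakdown, measured 3.07, 3.05 and 3.26 FPKM in the betaine-supplemented knockout, 2.96, 3.11 and 2.85 FPKM in the knockout and 2.06, 1.87 and 2.53 FPKM in wild type. Both knockout groups lay above wild type and overlapped each other, with log2 differences of 0.40 ± 0.13 (limma adjusted p = 0.0464) without betaine and 0.46 ± 0.13 (limma adjusted p = 0.0472) with it. On the TPM scale neither passed, at 0.050 (adjusted p = 0.854) without betaine and 0.46 (adjusted p = 0.151) with it.

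The abundant carboxylate carriers gave no call. Slc25a1, the citrate carrier that supplies cytosolic acetyl-CoA for lipogenesis, measured 111, 101 and 109 FPKM in the betaine-supplemented knockout, 113, 99.2 and 98.7 FPKM in the knockout and 92.9, 86.3 and 77.6 FPKM in wild type. Although no wild type library reached either knockout group, the log2 differences were 0.33 ± 0.13 with betaine (limma adjusted p = 0.116) and 0.27 ± 0.13 without (limma adjusted p = 0.132). Slc25a10, which exchanges malate and succinate for phosphate and also carries sulfate and thiosulfate, measured 68.4, 60.7 and 72.7 FPKM in the betaine-supplemented knockout, 45.2, 49.7 and 53.8 FPKM in the knockout and 51.4, 55.5 and 35.5 FPKM in wild type. The betaine libraries were the 3 highest, with a log2 difference of 0.52 ± 0.18 against wild type (limma adjusted p = 0.084) and 0.44 ± 0.18 against the knockout (limma adjusted p = 0.190). Slc25a34, a relative of Slc25a35, ranged from 1.11 to 2.42 FPKM with betaine, from 2.25 to 4.58 FPKM in the knockout and from 1.79 to 4.10 FPKM in wild type.

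Of the 10 carriers of amino acids, acylcarnitine, S-adenosylmethionine and the solutes grouped with them, 1 rose and 2 fell in the knockout. Slc25a45 had the highest log2 difference of the family. It measured 13.1, 9.25 and 16.7 FPKM in the betaine-supplemented knockout, 16.6, 16.2 and 12.1 FPKM in the knockout and 6.42, 5.90 and 8.05 FPKM in wild type. No wild type library reached the lowest knockout library of either kind. The log2 difference was 1.08 ± 0.22 for the knockout (limma adjusted p = 0.0105) and 0.87 ± 0.22 with betaine (limma adjusted p = 0.0361).

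Slc25a44, the carrier of branched-chain amino acids, measured 15.4, 20.2 and 21.9 FPKM in the betaine-supplemented knockout, 13.4, 9.14 and 11 FPKM in the knockout and 18.4, 14.8 and 28.2 FPKM in wild type. The knockout lay below both other groups, which overlapped. The log2 difference was -0.81 ± 0.24 for the knockout against wild type (limma adjusted p = 0.0376), or -0.56 (adjusted p = 0.0763) with the highest library, wild type replicate 3, left out. For the betaine-supplemented knockout the log2 difference was -0.05 ± 0.24 against wild type (limma adjusted p = 0.9) and 0.75 ± 0.24 against the knockout (limma adjusted p = 0.131). Slc25a12, the aspartate-glutamate carrier that is the minor form in liver, measured 1.10, 2.27 and 1.79 FPKM in the betaine-supplemented knockout, 1.23, 1.08 and 0.969 FPKM in the knockout and 2.21, 2.33 and 2.12 FPKM in wild type. It fell in the knockout, where every library was below wild type (log2 difference -0.77 ± 0.19, limma adjusted p = 0.0208). The betaine libraries were spread over the range of both other groups.

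Slc25a47 fell furthest of the called carriers. It measured 104, 43.1 and 64.3 FPKM in the betaine-supplemented knockout, 129, 137 and 156 FPKM in the knockout and 241, 163 and 191 FPKM in wild type. The 3 groups did not overlap, with wild type highest. The log2 difference was -1.56 ± 0.29 for the betaine-supplemented knockout against wild type (limma adjusted p = 0.0134), or 0.340-fold. Against wild type the plain knockout gave -0.48 ± 0.29 (limma adjusted p = 0.236), and the betaine-supplemented knockout gave -1.08 ± 0.29 against the plain knockout (limma adjusted p = 0.1). By the GENCODE gene bounds it lies 162 bases from Slc25a29, the carrier of basic amino acids, on the other strand of chromosome 12, while the RefSeq start of the window shown lies further along. Slc25a29 was much lower, at 0.683, 0.725 and 1.24 FPKM in the betaine-supplemented knockout, 0.767, 0.892 and 1.34 FPKM in the knockout and 1.49, 1.56 and 1.80 FPKM in wild type. Wild type exceeded every other library for Slc25a29, with log2 differences of -0.63 ± 0.20 with betaine (limma adjusted p = 0.0712) and -0.51 ± 0.20 without (limma adjusted p = 0.0894).

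The other members of that group were not called. Slc25a26, which brings S-adenosylmethionine into mitochondria, measured 1.57, 1.157 and 1.22 FPKM in the betaine-supplemented knockout, 1.51, 2.02 and 1.37 FPKM in the knockout and 1.44, 1.55 and 1.36 FPKM in wild type. All 3 groups overlapped, and the log2 difference for the knockout against wild type was 0.12 ± 0.16 (limma adjusted p = 0.6). Slc25a38, which imports glycine for haem synthesis, measured 8.54, 6.01 and 8.36 FPKM in the betaine-supplemented knockout, 7.68, 9.16 and 7.43 FPKM in the knockout and 8.02, 8.40 and 6.90 FPKM in wild type, and its groups overlapped too. Slc25a20, the carnitine-acylcarnitine carrier of fatty acid oxidation, ranged from 18.0 to 27.3 FPKM with betaine, from 28.8 to 32 FPKM in the knockout and from 16.5 to 29.3 FPKM in wild type. Slc25a22, a glutamate carrier, had 15.7, 23.4 and 28.8 FPKM in the betaine-supplemented knockout, 26.3, 26.4 and 32.5 FPKM in the knockout and 37.2, 25.7 and 57.9 FPKM in wild type, again with replicate 3 highest. Slc25a48, linked to choline import in human cells, ranged from 4.11 to 5.19 FPKM with betaine, from 3.04 to 4.16 FPKM in the knockout and from 3.82 to 4.34 FPKM in wild type.

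**Figure D3:**
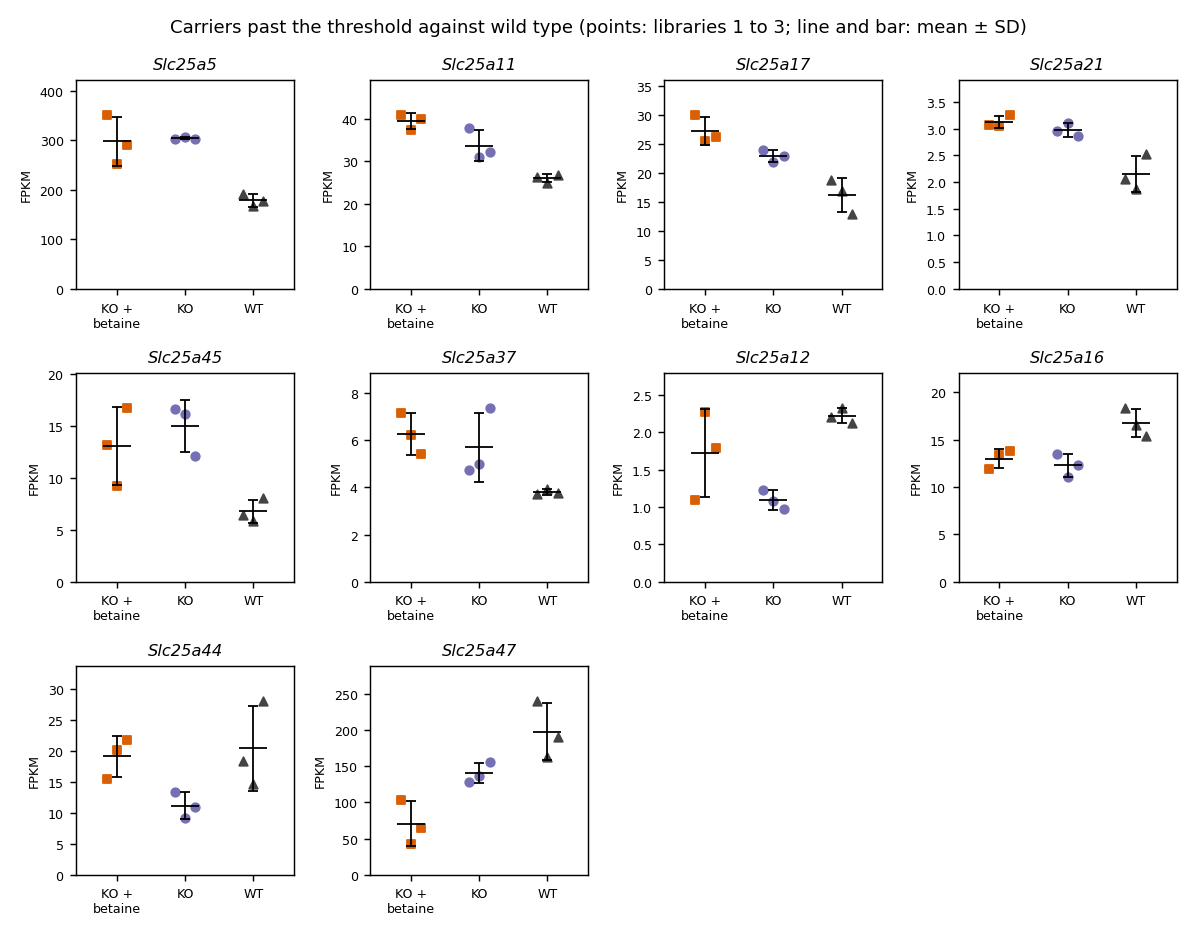
FPKM of carriers past the threshold in either comparison with wild type, with a point for each library and a line and bar for the mean ± SD of 3 libraries in each group (betaine-supplemented knockout, knockout, wild type). Both knockout groups lie above wild type for Slc25a5, Slc25a11, Slc25a17, Slc25a21, Slc25a45 and Slc25a37, and for Slc25a44 the knockout group alone lies low.

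The 4 carriers of phosphate, glutathione and iron all had log2 differences above 0 against wild type in both knockout groups, and 1 passed. Above 0 were 46.9% of the 32 carriers and 50.5% of all genes with betaine, and 62.5% and 51.2% without. Slc25a37, mitoferrin-1, which brings iron in for haem synthesis and is most active in red cell precursors, measured 7.16, 6.19 and 5.40 FPKM in the betaine-supplemented knockout, 4.72, 5.00 and 7.36 FPKM in the knockout and 3.73, 3.94 and 3.75 FPKM in wild type. Wild type was lowest and close to uniform. The log2 difference was 0.64 ± 0.17 with betaine (limma adjusted p = 0.0431), or 0.63 (adjusted p = 0.0676) without wild type replicate 3, and 0.50 ± 0.17 without betaine (limma adjusted p = 0.0586). Blood markers summed to 49.4 to 111 FPKM with betaine, 59.2 to 105 FPKM in the knockout and 24.3 to 285 FPKM in wild type, so their ranges overlapped, and none of the 3 tested was called. Slc25a28, mitoferrin-2, the form of other tissues, measured 10.7, 10.3 and 12.1 FPKM in the betaine-supplemented knockout, 11.4, 11.1 and 11.7 FPKM in the knockout and 11.4, 10.5 and 9.68 FPKM in wild type, and its groups overlapped.

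Slc25a39 measured 165, 149 and 179 FPKM in the betaine-supplemented knockout, 167, 156 and 159 FPKM in the knockout and 133, 152 and 94.9 FPKM in wild type. The wild type spread was the widest, and the log2 differences of 0.40 ± 0.18 with betaine and 0.37 ± 0.18 without did not pass (limma adjusted p = 0.164 and 0.15). Its relative Slc25a40, not tested, measured 0.446, 0.508 and 0.379 FPKM in the betaine-supplemented knockout, 0.424, 0.353 and 0.296 FPKM in the knockout and 0.114, 0.367 and 0.468 FPKM in wild type. Slc25a3, the phosphate carrier that feeds ATP synthase, had the lowest coefficient of variation of the 32 in each group, at 56.0, 54.2 and 56.1 FPKM in the betaine-supplemented knockout, 54.5, 54.5 and 55.0 FPKM in the knockout and 52.6, 50.9 and 51.2 FPKM in wild type. Its wild type libraries were the 3 lowest, yet the log2 difference was 0.10 ± 0.10 with betaine (limma adjusted p = 0.531) and 0.08 ± 0.10 without (limma adjusted p = 0.567).

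No member of the last group, with uncoupling-like and outer membrane proteins, was called. Slc25a30, a relative of the uncoupling proteins whose human form carries sulfur anions, had the highest coefficient of variation of the knockout group, 57.6%. It measured 5.65, 3.91 and 3.69 FPKM in the betaine-supplemented knockout, 31.3, 46.6 and 12.1 FPKM in the knockout and 16.2, 24.3 and 7.45 FPKM in wild type. The betaine libraries lay below all 6 others. Replicate 3 was the lowest library within both other groups. Slc25a46, an outer membrane protein of mitochondrial dynamics, ranged from 6.97 to 8.61 FPKM with betaine, from 6.50 to 8.11 FPKM in the knockout and from 8.87 to 9.95 FPKM in wild type. Its log2 differences of -0.26 ± 0.13 with betaine and -0.35 ± 0.13 without missed the threshold (limma adjusted p = 0.195 and 0.0682), though wild type exceeded every other library.

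Betaine within the knockout gave no call among the 32 carriers under limma with Benjamini-Hochberg adjustment, in a comparison where 0.0422% of all genes, 5 of 11852, passed. At an unadjusted p under 0.05 there were 8 carriers, or 25%, beside 22.5% of all genes. Of these 4 were higher and 4 lower, beside 11.6% and 11% of all genes. Groups did not overlap for 9 carriers, or 28.1%, beside 30.3% of all genes, and the median log2 difference was -0.03 over the carriers and -0.0016 over all genes. Below the knockout stood Slc25a30, with a log2 difference of -2.46 ± 0.52 (limma adjusted p = 0.0868), and Slc25a47. Slc25a33 gave -0.67 ± 0.20 (limma adjusted p = 0.120) and Slc25a34 gave -0.96 ± 0.34 (limma adjusted p = 0.15). Above it stood Slc25a44, Slc25a10, Slc25a48 (0.40 ± 0.14, limma adjusted p = 0.152) and Slc25a12 (0.44 ± 0.19, limma adjusted p = 0.215). The groups of Slc25a34, Slc25a48 and Slc25a12 overlapped.

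**Figure D4:**
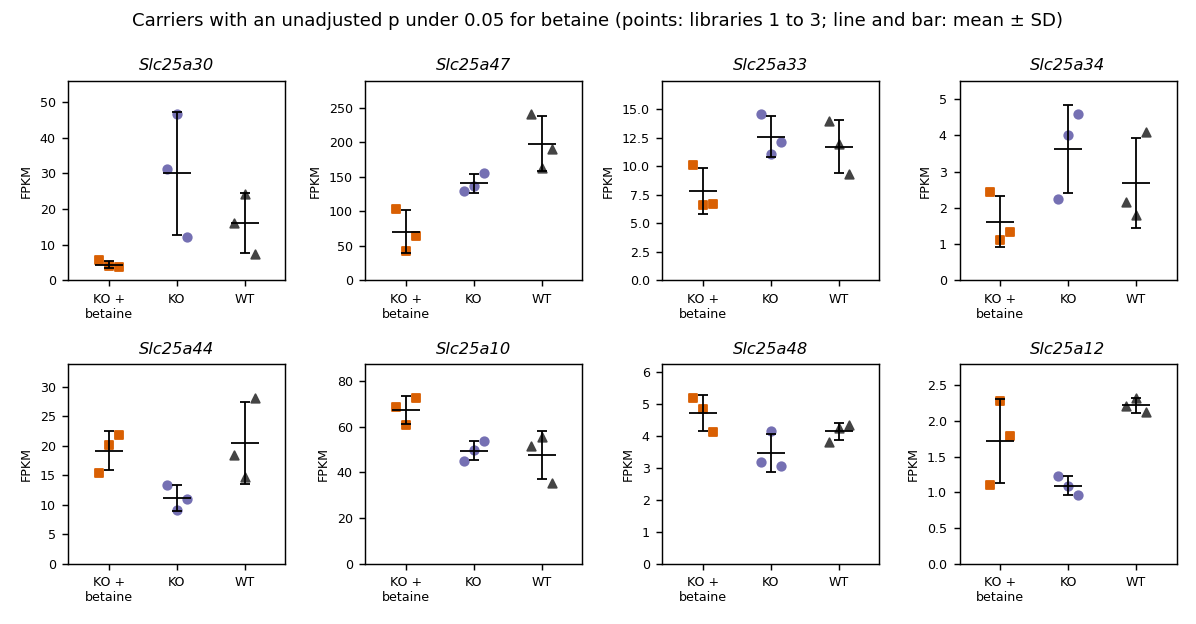
FPKM of the 8 carriers with an unadjusted p under 0.05 for the betaine-supplemented against the plain knockout, with a point for each library and a line and bar for the mean ± SD of 3 libraries in each group, wild type included. For Slc25a30 the betaine libraries lie between 3.69 and 5.65 FPKM, under the lowest knockout library at 12.1 FPKM, and for Slc25a10 they lie between 60.7 and 72.7 FPKM, over the highest knockout library at 53.8 FPKM.

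This count depended on single libraries. Without betaine replicate 1, 4 carriers were called, beside 878 of all genes tested. The carriers were Slc25a47 at -1.40 (adjusted p = 0.0257), Slc25a30 at -2.63 (adjusted p = 0.0484), Slc25a33 at -0.86 (adjusted p = 0.0384) and Slc25a12 at 0.66 (adjusted p = 0.0422). Without wild type replicate 3, which enters through the shared spread, Slc25a30 was called at -2.46 (adjusted p = 0.0463). In that fit Slc25a30 was also called for the betaine-supplemented knockout against wild type, at -2.07 (adjusted p = 0.0365), where with all libraries it had -1.62 ± 0.52 (adjusted p = 0.0773). On the TPM scale, which moved the median of all genes by 0.33, 8 carriers were called, 7 higher and 1 lower. Beside them 1754 of 11852 genes were called, 95.8% of them higher.

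Log2 differences varied with exon length across the whole table. Over all genes the Spearman correlation of log2 difference with exon length was -0.46 for the knockout and -0.30 for the betaine-supplemented knockout, a description across genes that share their libraries. For the betaine-supplemented against the plain knockout it was 0.29. Over the 32 carriers these were -0.25, -0.28 and 0.079. Carriers had a median exon length of 3663.5 bases, beside 3798 for all genes tested. Of the 8 carriers in the shortest of 3 equal bins of genes (up to 2677 bases), 2 were higher and 0 lower in the knockout. Of all genes in that bin, 24.1% were higher and 2.81% lower. Of the 15 carriers in the middle bin (up to 5244 bases) 4 were higher and 2 lower, beside 10.6% and 11.2% of its genes. Of the 9 in the longest bin 0 were higher and 1 lower, beside 3.85% and 24.2% of its genes. With the trend removed, 6 carriers passed in the knockout, beside 2195 of 11849 genes. Among the 6 were Slc25a5 (0.41, adjusted p = 0.0387), Slc25a45 (0.94, adjusted p = 0.0205), Slc25a21, Slc25a44 and, newly, Slc25a37 (0.66, adjusted p = 0.0322). Slc25a17 then had 0.37 (adjusted p = 0.0661), Slc25a16 had -0.34 (adjusted p = 0.0547) and Slc25a12 had -0.54 (adjusted p = 0.0593). In the betaine-supplemented knockout against wild type, Slc25a45 then had 0.75 (adjusted p = 0.0572).

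**Figure D5:**
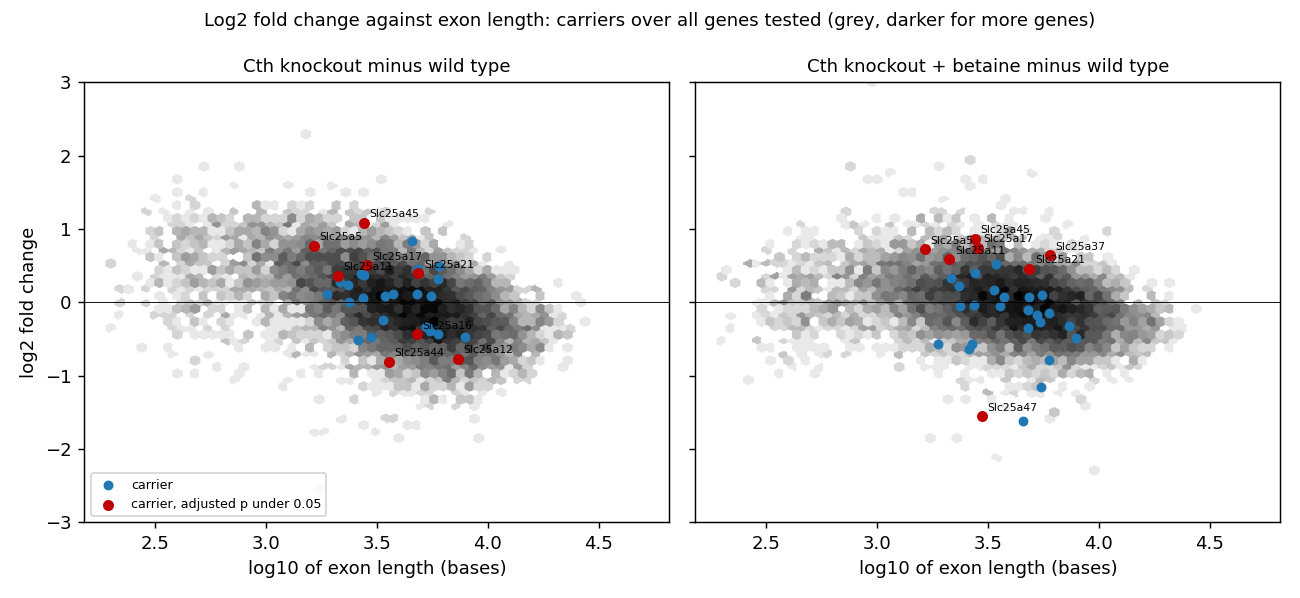
Log2 fold change against log10 of exon length in bases for the knockout against wild type (left) and the betaine-supplemented knockout against wild type (right), with carriers as points over the density of all 11852 genes in grey. Carriers past an adjusted p of 0.05 are red and named, and the grey cloud slopes downward with length, with Spearman correlations of -0.46 and -0.30.

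The machinery that inserts carriers was described from a list of 16 genes, 14 of them tested. In the knockout 9 were higher and 1 lower than in wild type, with a median log2 difference of 0.66 beside 0.015 over all genes, of which 12.8% were higher and 12.7% lower. On the TPM scale 3 were higher and 3 lower with a median of 0.25, beside 588 and 3674 of 11852 genes. With wild type replicate 3 left out, 7 were higher and 2 lower, beside 1184 and 1383 genes. Timm10b, a subunit of the TIM22 pathway, averaged 0.642 ± 0.158 FPKM in the betaine-supplemented knockout, 1.45 ± 0.163 FPKM in the knockout and 0.510 ± 0.0695 FPKM in wild type (SD, n = 3 libraries each), a log2 difference of 0.95 for the knockout (limma adjusted p = 0.00722). Timm8a1, a small TIM chaperone, rose by 0.56 (limma adjusted p = 0.0131) and Tomm40, the pore of the TOM complex, by 0.75 (limma adjusted p = 0.0136). Timm29, a TIM22 subunit named after its values were seen, was the member that fell, by 0.74 (limma adjusted p = 0.0286). With betaine, 3 were higher than in wild type and 0 lower, beside 5.87% and 5.78% of all genes. The 3 were Tomm40 by 0.81, Tomm5 by 0.96 and Timm8a1 by 0.46 (limma adjusted p = 0.0191, 0.0205 and 0.0415). Between the 2 knockout groups limma called 0, and 4 had an unadjusted p under 0.05, beside 22.5% of all genes. There 1 was lower with wild type replicate 3 left out, and 4 were higher on the TPM scale. On that scale 1754 of 11852 genes were called, 95.8% of them higher. These genes are short, with a median exon length of 2410.5 bases. With the length trend removed 4 were higher and 1 lower in the knockout, beside 1065 and 1130 of 11849 genes.

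Other transporters of the mitochondrial membranes were followed in 19 genes, all tested. In the knockout 3 were higher and 2 lower than in wild type, beside 12.8% and 12.7% of all genes. On the TPM scale 0 were higher and 5 lower, beside 588 and 3674 of 11852 genes. With wild type replicate 3 left out, 2 were higher and 1 lower, beside 1184 and 1383 genes. Those higher were Smdt1, a calcium uniporter subunit, at 0.73, Vdac2, an outer membrane channel, at 0.50 and Abcb8 at 0.59 (limma adjusted p = 0.0210, 0.0214 and 0.0258). Between the 2 knockout groups limma called 0, with 1 at an unadjusted p under 0.05, beside 22.5% of all genes. On the TPM scale 6 were higher between these groups, beside 1754 of 11852 genes called, 95.8% of them higher. Those lower than wild type in the knockout, named after their values were seen, were Abcb10 and Sfxn5. With betaine 2 were higher than in wild type and 0 lower, beside 5.87% and 5.78% of all genes. The 2 were Abcb8 at 0.69 and Mpc1, a pyruvate carrier subunit, at 0.62 (limma adjusted p = 0.0266 and 0.0331). Of the SLC25 proteins with other symbols, limma called 0 of the 3 tested, Ucp2, Mtch1 and Mtch2, in each comparison. Of the 3, 1 had an unadjusted p under 0.05 in the knockout against wild type, beside 40% of all genes. On the TPM scale 1 was lower in that comparison, beside 3674 of 11852 genes. There 1 was higher between the 2 knockout groups, beside 1754 genes called, 95.8% of them higher.

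The enzymes that work on either side of the carriers were followed in 25 genes, all tested. In the knockout 4 were higher and 5 lower than in wild type, with a median log2 difference of -0.21, beside 12.8% and 12.7% of all genes. On the TPM scale 1 was higher and 10 lower, with a median of -0.63. Over all 11852 genes that fit called 588 higher and 3674 lower, with a median of -0.36. Cpt1a, which makes the acylcarnitine that Slc25a20 carries, averaged 39.2 ± 2.75 FPKM in the betaine-supplemented knockout, 45.6 ± 1.86 FPKM in the knockout and 86.2 ± 11.1 FPKM in wild type (SD, n = 3 libraries each). It fell in both knockout groups, by 1.12 with betaine (limma adjusted p = 0.00383) and by 0.90 without (limma adjusted p = 0.00567). The malate dehydrogenases, which act with Slc25a11 in the malate-aspartate shuttle, rose in the knockout: Mdh2 by 0.74 (limma adjusted p = 0.00861) and Mdh1 by 0.47 (limma adjusted p = 0.0275). With betaine 5 enzymes were higher than in wild type and 2 lower, beside 5.87% and 5.78% of all genes. Citrate synthase Cs, which makes the citrate that Slc25a1 carries, rose by 0.56 (limma adjusted p = 0.0134). With wild type replicate 3 left out, 1 was higher and 2 were lower in the knockout against wild type, beside 1184 and 1383 of 11852 genes. Between the 2 knockout groups limma called 0, and 5 had an unadjusted p under 0.05, beside 22.5% of all genes. There 1 was higher with wild type replicate 3 left out, and 6 were higher on the TPM scale. On that scale 1754 of 11852 genes were called, 95.8% of them higher.

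Few cell type markers passed the test. Among the 7 hepatocyte markers, Apoa1 and Serpina1a were higher and Cps1 lower in the knockout than in wild type. Among endothelial markers 1 of 6 was called lower in each knockout group, Clec4g with betaine and Kdr without. All 6 had log2 differences below 0 from wild type, with medians of -0.62 with betaine and -0.67 without. Others, named after their values were seen, had an unadjusted p under 0.05: Kdr, Pecam1 and Lyve1 with betaine, Pecam1 and Cdh5 without. Endothelial sums were 19.8 to 30.8 FPKM with betaine, 22.7 to 28.9 FPKM in the knockout and 29.6 to 51.0 FPKM in wild type. The plain knockout sums lay below wild type. Macrophage markers summed to 45.2 to 104 FPKM with betaine, 60.2 to 72.0 FPKM in the knockout and 85.3 to 114 FPKM in wild type. There too the plain knockout sums lay below wild type. Of the macrophage markers limma called 0 of 6, with Adgre1 at an unadjusted p under 0.05 in the knockout against wild type. Stellate and cholangiocyte sums overlapped between groups and limma called 0 of 7 and 0 of 4. The stellate median log2 difference from wild type was 0.51 with betaine and 0.52 without, with an unadjusted p under 0.05 for Col3a1 (0.90) and Acta2 (0.82) with betaine and Des (0.57) without. Lrat and Dcn went the other way without betaine, at -0.35 and -0.088. With betaine Dcn had -0.11 and Lrat 0.073. Sox9, a cholangiocyte marker, had -0.75 with betaine and -0.87 without, also at an unadjusted p under 0.05. The other tested cholangiocyte markers, Krt19, Epcam and Spp1, went the other way without betaine, at 0.13, 0.028 and 0.16. With betaine they had -0.032, -0.24 and -0.099. Skeletal muscle markers summed to at most 0.0647 FPKM in any library, with Myl1 at 0, and adipose markers to at most 3.71 FPKM. Pancreas markers summed to 8.26 to 12.8 FPKM with betaine, 11.9 to 14.5 FPKM in the knockout and 5.60 to 6.41 FPKM in wild type. They were led by Cela1, the 1 tested of 5 listed, which was higher in both knockout groups. Cpa1 and Pnlip were at 0. The part of the endothelial, macrophage, stellate and cholangiocyte marker differences, and of that of Cela1, in the carrier results was not tested.

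Spread within groups was described for the carriers only. The median coefficient of variation of the 32 carriers was 16.9% in the betaine-supplemented knockout, 12.2% in the knockout and 17.5% in wild type. The coefficient was higher in wild type, with replicate 3 included, than in the knockout for 21 of the 32 carriers. The share over all genes was not computed, and the difference in spread was not tested. Along the genome the members lay on 18 chromosomes, and Slc25a5 and Slc25a43 on X, Slc25a23 and Slc25a41 on 17 and Slc25a24 and Slc25a54 on 3 were neighbours within 18448, 2056 and 6461 bases. In each of these pairs at least 1 gene was below the threshold: Slc25a43, Slc25a41, Slc25a24 and Slc25a54 had no test. The exons of 10 tested carriers overlap those of a gene on the opposite strand, among them Slc25a26 with Lrig1 over 144 bases and Slc25a25 with Naif1 over 379 bases, so their levels are uncertain to that extent.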

How the data were processed

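Liver poly(A) RNA of 9 libraries was measured, 3 per group, after an NEBNext Ultra library preparation per the labels' protocols. For 54532 genes the authors deposited normalized FPKM, and raw counts were not used here. DESeq2 1.16.1, HISAT2 2.0.5, featureCounts 1.5.0-p3 and the build mm10 are named, without roles, per the submitters' processing notes. GENCODE M21, on the same assembly (GRCm38), gave symbols, biotypes and the union of exons for 54495 genes. Reads were recovered by multiplying FPKM by those exon lengths and by a denominator fitted for each library. This put 98.3% to 98.6% of values worth at most 20 reads within 0.05 of a whole read. For counting error only, 3 reads in 1 kb equalled 0.162 to 0.222 FPKM. The FPKM denominators so recovered were 13511998 to 18527180 reads and differ from the recovered totals.

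Genes averaging 0.5 FPKM or more were fitted together as log2(FPKM + 0.5) over 9 libraries in limma 3.58.1 (R 4.3.3; lmFit, eBayes with trend and robust), two-sided, with Benjamini-Hochberg adjustment over 11852 genes in each of 3 contrasts. Adding 0.5 understates the fold of low genes. Preparation, promoter searches and figures used Python 3.11.15, and the fit was checked on simulated data. The members and lists were chosen with earlier results of these data known. Values in every library were to be given for members called in any comparison, the 5 highest, carriers of substrates near the deleted step and same-role partners, with other members by range and up to 3 genes of each other list by smallest p. Those of Slc25a29, Slc25a30 and Slc25a35 were given after their values were seen. A carrier and an enzyme that enter the counts are not reported here by name or drawn. Markers were listed for hepatocytes, cholangiocytes, stellate cells, endothelium, macrophages, lymphocytes, skeletal muscle, adipose, pancreas and blood. Lymphocyte and adipose markers had 1 tested gene each, and neither was called. Alternatives covered pseudocount, filter, scaling, exon length, the model, a replicate block and leaving out each library. Scaling to each library's own recovered reads, and leaving out wild type replicate 3 with the length trend removed, were chosen after seeing the data.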

Additional observations from a re-analysis of the deposited data

How the results depend on the processing

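Over the alternatives run for single carriers, 621 values kept their direction and side of the threshold. Another 133 fell short of it, 27 newly passed and 1 reversed. The 621 include carriers that were not called in the fit described above and stayed uncalled. All 133 that fell short were called in that fit, so the calls were less stable than the pooled number. The reversal was Slc25a11 in the knockout against wild type at -0.050 on the TPM scale, where the median of all genes also moved down. Pseudocounts of 0.1 and 1 left the carriers called at 9, 0 and 7 for the knockout against wild type, the betaine-supplemented against the plain knockout and the betaine-supplemented knockout against wild type. The causes of the following moves were not tested.

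For the knockout against wild type (9 carriers, 3029 genes), testing genes above 0 in any library gave 2 carriers and 1865 genes, fitting only the 2 groups gave 5 carriers, and leaving out wild type replicate 3 with the length trend removed gave 4 carriers and 1884 genes. For the betaine-supplemented against the plain knockout (0 carriers and 5 genes by limma), pseudocounts of 0.1 and 1 gave 8 and 10 genes, genes above 0 gave 1, the TPM scale gave 8 carriers and 1754 genes (95.8% higher), and eBayes without trend and robust gave 0 genes. There, fitting only the 2 groups gave 35 genes, own read totals gave 67, and leaving out wild type replicate 3 with the trend removed gave 1 carrier and 210 genes. For the betaine-supplemented knockout against wild type (7 carriers, 1381 genes), genes above 0 gave 531 genes, and fitting only the 2 groups gave 0 carriers and 353 genes. Of the genes called for the knockout against wild type, 50.1% were higher, against 13.8% on the TPM scale and 37.5% with own read totals, and for the betaine-supplemented knockout against wild type 50.4%, against 69.6% with own read totals.

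Leaving out 1 library at a time gave, in the same order of comparisons, 2 to 7, 0 to 4 and 0 to 7 carriers, and 896 to 3231, 0 to 878 and 351 to 1441 genes.

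Same-numbered libraries of different groups correlated at -0.23 to 0.098 in their deviations from the group means, none above 0.1, so the numbers were not taken to pair the samples. Each knockout library did correlate best with the wild type library of its number (0.083, 0.098 and 0.049), a hint from the data and not from the design, while the betaine libraries did not follow their numbers. With the replicate block the carriers called were 5, 0 and 6 and the genes 2210, 0 and 671. With the block and the length trend removed they were 2, 0 and 5 carriers and 1203, 0 and 506 genes.

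Depth limited Slc25a14 and Slc25a29 most, with 10 to 36 and 27 to 85 recovered reads per library.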
